A study of Mus musculus with 185 samples.

Results

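The fibrillar collagens are the rod-shaped collagens that pack side by side into the banded fibrils of connective tissue. Each molecule is a helix of 3 chains that are hydroxylated and folded in the endoplasmic reticulum, secreted as procollagen, trimmed at both ends and then cross-linked outside the cell. In the heart they come mainly from fibroblasts, type I and type III collagen make up most of the interstitial fibrils and of the scar that replaces dead muscle after an infarct, and the less abundant type V and type XI chains are known to enter the same fibrils, to help start them and to limit their width. The genes described are Col1a1, Col1a2, Col3a1, Col5a1, Col5a2, Col5a3 and Col11a1. They were listed by name as members of the family, and all 7 have a row among the 17171 genes of the deposited table. Of the 11 fibrillar collagen genes of the mouse, the remaining 4 (Col2a1, Col11a2, Col24a1 and Col27a1) are given at the end.

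The data are single-cell mRNA levels from 185 cells of the hearts of adult C57BL/6 mice (backcross N=6) of about 5 months of age. In Postn MCM/+; R26-eGFP mice, a tamoxifen-inducible Cre (MerCreMer) was inserted at the Postn locus, so that a cell which used this promoter while tamoxifen was given carried eGFP from then on. Tcf21 MCM/+; R26-eGFP mice labelled resident fibroblasts in the same way through Tcf21. Myocardial infarction (MI) was made by permanent ligation of the left coronary artery, hearts were digested with collagenase, and cells negative for CD31 (endothelial), CD45 (leukocyte) and the dead-cell stain 7-AAD were captured on the Fluidigm C1 system, with lineage-traced cells of the infarct taken a week after MI. Recombination is incomplete, so that a cell without eGFP can still belong to the lineage, and the labels give neither the mouse nor the genotype of a cell.

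The labels give 9 classes. The 152 cells called activated, or taken from the scar, are 27 Postn-traced cells, 24 Postn-negative cells, 28 Postn+ cells that the label does not call traced, 44 that are Tcf21-traced, and 29 scar cells without a trace. They are called infarct or scar cells here. The 33 resident cells are 17 Tcf21-traced cells labelled uninjured, 12 CD31-CD45- cells labelled Postn-negative, 3 Tcf21+ Postn+ cells and 1 CD31-CD45- Postn+ cell. Labels of the 2 Tcf21-traced classes also read Tcf21+ beside traced, and they do not say whether this means the tracer or the mRNA. The names of the cells place all resident cells in a capture named Jul24 and the Postn-traced and Postn-negative cells together in Jul29. The Tcf21-traced infarct cells are in Nov4 and the scar cells in Nov11, while the Postn+ cells without a tracing label are spread over Jul29 (6), Nov4 (19) and Nov11 (3). Since resident and infarct cells share no capture, capture and injury cannot be told apart. Only the Tcf21-traced resident label says uninjured. The paper counts 33 of the sequenced cells as from sham hearts, which is the number of resident cells here. A figure caption of the paper, however, places its control interstitial cells in the remote region of the heart. The source of the resident CD31-CD45- cells is thus not fully settled, which bears on the 2 comparisons with them. Postn itself was used to name the Postn-negative classes, so the differences from them describe cells chosen by that mRNA. Even so, 3 of the 24 Postn-negative infarct cells and 3 of the 12 resident CD31-CD45- cells had Postn above the detection minimum given below.

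Values are log2(TPM+1), where TPM is transcript abundance per length, scaled to the same sum in every cell, so that levels of different genes can be set side by side. A level is a class mean with the SD between its cells, a difference is one class mean minus another in log2 units, and a gene counts as higher or lower when the means are more than 1 unit apart. Because no mouse is named, each class is 1 sample, no test was run, and the SD is only a description. A gene was taken as detected above 5 TPM. The interval beside a share of cells is the exact 95% Clopper-Pearson interval, which covers counting error only, and where Col11a1 is at 0 the share that 3 cells would make is given as a limit. The authors give only a mean read depth over the cells, and that of each single cell is unknown. The number of genes above 5 TPM, which ran from 141 to 5419 with a median of 2770, was given in its place, and it was higher in the Postn-traced cells (median 3643) than in the Postn-negative cells (2342) or the resident Tcf21-traced cells (2264).

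Most cells carried fibroblast markers. At least 3 of 6 fibroblast markers (Pdgfra, Tcf21, Dcn, Lum, Ddr2, Dpt) were above 5 TPM in 175 of the 185 cells. By the same rule, markers of endothelial cells marked 0 cells, of myeloid cells 2, of pericytes 2, of cardiomyocytes 2 and of the epicardium 1. Smooth muscle markers marked 22 cells, of which 10 were Tcf21-traced infarct cells, 6 Postn+ cells without a tracing label, 4 Postn-traced cells and 2 scar cells. Over all 185 cells Tagln, Acta2 and Smtn of this list were above 5 TPM in 68, 63 and 60 cells, and Des, Cnn1 and Myh11 in 8, 3 and 2. Acta2 is also a known marker of myofibroblasts. The part of these cells in the collagen levels was not tested. A single resident CD31-CD45- cell held 5 of 6 myeloid markers and only 1 fibroblast marker, and it was the only cell of the 185 with none of the 7 collagens above 5 TPM. Another 7 cells had fewer than 50% of the median number of genes of their capture, 6 of them from the scar with 141 to 1560 genes. None of them is in the 6 comparisons, and for scar correlations, the scar shares of the major chains and the lists of most correlated genes the outcome without them is given as well.

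By the GENCODE M21 annotation (GRCm38, the assembly also called mm10, which the submitters' notes name), Col3a1 (chr1:45311538-45349706, plus strand) and Col5a2 (chr1:45374321-45503282, minus strand) are neighbours, with 24.6 kb between them. The others lie apart, Col1a1 at chr11:94936224-94953042, Col1a2 at chr6:4504814-4541544, Col5a1 at chr2:27886425-28039514 and Col11a1 at chr3:114030540-114220718 on the plus strand and Col5a3 at chr9:20770050-20815067 on the minus strand. The library kit does not mark strand, and exons of Col5a1 overlap those of 2 antisense transcripts (2810430I11Rik and Gm13372), neither of which has a row in the table, so reads from them cannot be told apart from Col5a1. Exons of Col3a1 overlap Gm47302, an annotated microRNA on the same strand that has no row either. RefSeq promoters (GRCm38.p6, 250 bases before to 50 after the start) matched 5 of the 7 genes; there is no entry for Col1a1 and Col5a2. Shown are those of Col1a2 (chr6:4505368-4505667, plus strand) and Col3a1 (chr1:45311288-45311587, plus strand), the genes with the highest class means, and of Col5a3 (chr9:20815018-20815317, minus strand) and Col11a1 (chr3:114030290-114030589, plus strand), which were detected in the fewest cells. The Col1a2 window lies inside the gene as placed above, which begins at chr6:4504814, so it was set at another start than that of GENCODE. Capitals mark CCAAT or its reverse complement ATTGG.
Col1a2: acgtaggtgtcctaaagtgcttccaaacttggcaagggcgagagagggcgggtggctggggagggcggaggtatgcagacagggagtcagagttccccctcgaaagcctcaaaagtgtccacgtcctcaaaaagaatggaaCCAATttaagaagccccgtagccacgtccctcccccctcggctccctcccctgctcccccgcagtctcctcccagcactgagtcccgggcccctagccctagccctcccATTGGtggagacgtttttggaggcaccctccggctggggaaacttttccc
Col3a1: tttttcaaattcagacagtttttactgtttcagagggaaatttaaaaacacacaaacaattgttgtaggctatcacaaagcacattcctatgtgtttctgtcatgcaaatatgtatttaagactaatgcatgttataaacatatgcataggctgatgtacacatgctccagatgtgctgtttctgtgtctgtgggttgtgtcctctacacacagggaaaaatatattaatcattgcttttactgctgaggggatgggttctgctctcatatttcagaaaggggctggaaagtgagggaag
Col5a3: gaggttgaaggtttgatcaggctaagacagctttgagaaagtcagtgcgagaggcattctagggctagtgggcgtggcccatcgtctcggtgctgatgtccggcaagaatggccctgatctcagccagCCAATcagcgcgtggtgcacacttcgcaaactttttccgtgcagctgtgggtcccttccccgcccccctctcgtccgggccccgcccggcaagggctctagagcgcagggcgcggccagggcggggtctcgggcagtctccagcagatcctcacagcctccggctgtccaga
Col11a1: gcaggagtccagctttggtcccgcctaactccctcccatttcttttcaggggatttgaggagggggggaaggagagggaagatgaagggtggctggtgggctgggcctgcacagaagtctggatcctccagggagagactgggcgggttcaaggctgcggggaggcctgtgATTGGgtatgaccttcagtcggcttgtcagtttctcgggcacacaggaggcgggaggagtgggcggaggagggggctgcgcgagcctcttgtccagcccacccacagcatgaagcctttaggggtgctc
The motif occurs 2 times in the Col1a2 window, 1 time in those of Col5a3 and Col11a1, and 0 times in those of Col3a1 and Col5a1. Of all 32851 promoters of this length, 37.4% hold it on either strand. GGGCGG, on either strand, is in all of the 5 windows but that of Col3a1, and in 35.7% of all promoters. These matches describe the letters of the windows only.

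Type I collagen is built of the chains of Col1a1 and Col1a2 and is the main tensile component of the scar. In the 27 Postn-traced infarct cells Col1a1 ran from 3.85 to 12.02 around a median of 10.80 in log2(TPM+1). Among the 24 Postn-negative cells of the same capture it ran from 1.03 to 9.33 around a median of 6.51. Although 1 traced cell lay at 3.85, no Postn-negative cell reached the median of the traced cells. Col1a1 was intermediate in Tcf21-traced infarct cells, from 2.38 to 11.53 around a median of 9.50. The Postn+ cells without a tracing label ran from 2.26 to 15.19 around a median of 10.47, and the scar cells from 0 to 15.22 around a median of 9.95. These classes overlap almost throughout, both hold a cell above 15 that stands over every traced cell, and the 4 scar cells at 0 are low-gene cells. In the median, resident cells were lower than the infarct classes other than the Postn-negative. They ran from 4.62 to 9.13 around a median of 7.58 in the Tcf21-traced and from 0 to 10.03 around a median of 7.98 in the CD31-CD45- class.

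Col1a2 supplies the α2 chain and varied least of the 7 among Postn-traced cells. It ran from 10.17 to 13.31 around a median of 11.94 in Postn-traced cells and from 5.03 to 11.19 around a median of 9.29 in Postn-negative cells. Only 3 Postn-negative cells exceeded the lowest traced cell. Values of Tcf21-traced infarct cells went from 7.82 to 12.71 around a median of 10.83, those of Postn+ cells without a tracing label from 7.94 to 13.67 around a median of 11.64 and those of scar cells from 0 to 12.53 around a median of 11.38. The scar cell at 0 is 1 of the low-gene cells, with 264 genes above 5 TPM. In resident cells Col1a2 was from 5.05 to 10.67 around a median of 9.20 (Tcf21-traced) and from 1.98 to 10.45 around a median of 9.23 (CD31-CD45-, where the lowest is the cell with myeloid markers).

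Col3a1 encodes the only chain of type III collagen, which is laid down early in repair and shares fibrils with type I. It ran from 9.45 to 13.05 around a median of 11.93 in Postn-traced cells, from 1.5 to 10.68 around a median of 8.70 in Postn-negative cells and from 1.40 to 12.61 around a median of 10.67 in Tcf21-traced infarct cells. In Postn+ cells without a tracing label it ran from 7.32 to 12.47 around a median of 10.90, and in scar cells from 0 to 12.52 around a median of 11.06. The scar class holds cells at the level of the traced class as well as 3 cells listed at 0, all 3 with few genes. Resident levels were from 5.69 to 10.03 around a median of 8.54 in Tcf21-traced and from 1.79 to 10.64 around a median of 9.31 in CD31-CD45- cells.

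Col5a1 and Col5a2 give the chains of the common form of type V collagen, which co-assembles with type I and is needed to start its fibrils. Col5a1 ran from 3.53 to 8.72 around a median of 6.94 in Postn-traced cells and from 0 to 7.51 around a median of 2.36 in Postn-negative cells, 6 of which were listed at 0. It was from 0 to 8.82 around a median of 6.28 in Tcf21-traced infarct cells, from 0 to 8.09 around a median of 6.92 in Postn+ cells without a tracing label and from 0 to 9.63 around a median of 5.97 in scar cells. Every Postn-traced cell had Col5a1, while the other classes of 12 or more cells each included cells at 0, though the 4 in the scar are all low-gene cells. The highest scar values of Col5a1 and of Col5a2 are from 1 low-gene cell, with 264 genes. Resident Tcf21-traced cells ran from 0 to 7.18 around a median of 3.12 and resident CD31-CD45- cells from 0 to 9.21 around a median of 4.19. Col5a2 was higher than its partner in the mean of each class of 12 or more cells. It ran from 2.37 to 10.38 around a median of 8.73 in Postn-traced cells, from 0 to 9.19 around a median of 5.75 in Postn-negative cells and from 0.49 to 10.69 around a median of 8.05 in Tcf21-traced infarct cells. It ran from 0.93 to 9.72 around a median of 8.34 in Postn+ cells without a tracing label and from 0 to 10.98 around a median of 8.09 in scar cells. Among resident cells, those traced through Tcf21 ran from 0 to 9.09 around a median of 5.60 and the CD31-CD45- cells from 0 to 8.05 around a median of 4.04. The Postn-negative and the resident Tcf21-traced class hold cells at 0 as well as 2 cells each above the traced median, so their means describe few single cells.

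Col5a3 encodes a rarer type V chain, and its pattern was unlike that of the other 6. Its median was highest in the larger resident classes. Values ran from 0 to 7.46 around a median of 5.22 in the CD31-CD45- and from 0 to 8.78 around a median of 4.20 in the Tcf21-traced class. In Postn-traced cells it ran from 0 to 7.86 around a median of 1.56, and in Postn-negative cells from 0 to 8.41 around a median of 0.82. Tcf21-traced infarct cells had values from 0 to 7.59 around a median of 0, Postn+ cells without a tracing label from 0 to 8.05 around a median of 1.45 and scar cells from 0 to 7.12 around a median of 0. Every class of 12 or more cells held cells at 0 and cells above 7, so the classes overlap over the whole range. Col5a3 was above 5 TPM in 10 of 17 (58.8%, interval 32.9% to 81.6%) resident Tcf21-traced cells, 7 of 12 (58.3%, interval 27.7% to 84.8%) resident CD31-CD45- cells and 12 of 27 (44.4%, interval 25.5% to 64.7%) Postn-traced cells. The lowest shares were 14 of 44 (31.8%, interval 18.6% to 47.6%) in Tcf21-traced infarct cells and 7 of 29 (24.1%, interval 10.3% to 43.5%) in scar cells. With 1 sample to a class, these counts do not settle the order of the shares.

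Col11a1, the α1 chain of type XI collagen, is best known from cartilage, where it nucleates fibrils. It was found mainly in the infarct. It was above 5 TPM in 11 of 27 (40.7%, interval 22.4% to 61.2%) Postn-traced cells, 10 of 28 (35.7%, interval 18.6% to 55.9%) Postn+ cells without a tracing label, 7 of 29 (24.1%, interval 10.3% to 43.5%) scar cells and 8 of 44 (18.2%, interval 8.19% to 32.7%) Tcf21-traced infarct cells. It was listed at 0 in all 24 Postn-negative cells of the infarct, which allows a share of up to 12.5% by 3 counts (exact upper bound 14.2%), and in all 17 resident Tcf21-traced cells, which allows up to 17.6% (exact upper bound 19.5%). A single resident CD31-CD45- cell, of 12, had it at 5.36. The Postn-negative and the Postn-traced cells were in the same capture. Among the cells with any Col11a1, values ran from 0.72 to 8.66 in Postn-traced cells, from 0.74 to 8.61 in Tcf21-traced infarct cells, from 1.40 to 9.70 in scar cells and from 2.68 to 10.12 in Postn+ cells without a tracing label, while the median of each of these classes was 0. Postn-negative cells had fewer genes above 5 TPM, and the part of depth in the absence of Col11a1 from them was not tested.

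**Figure D1:**
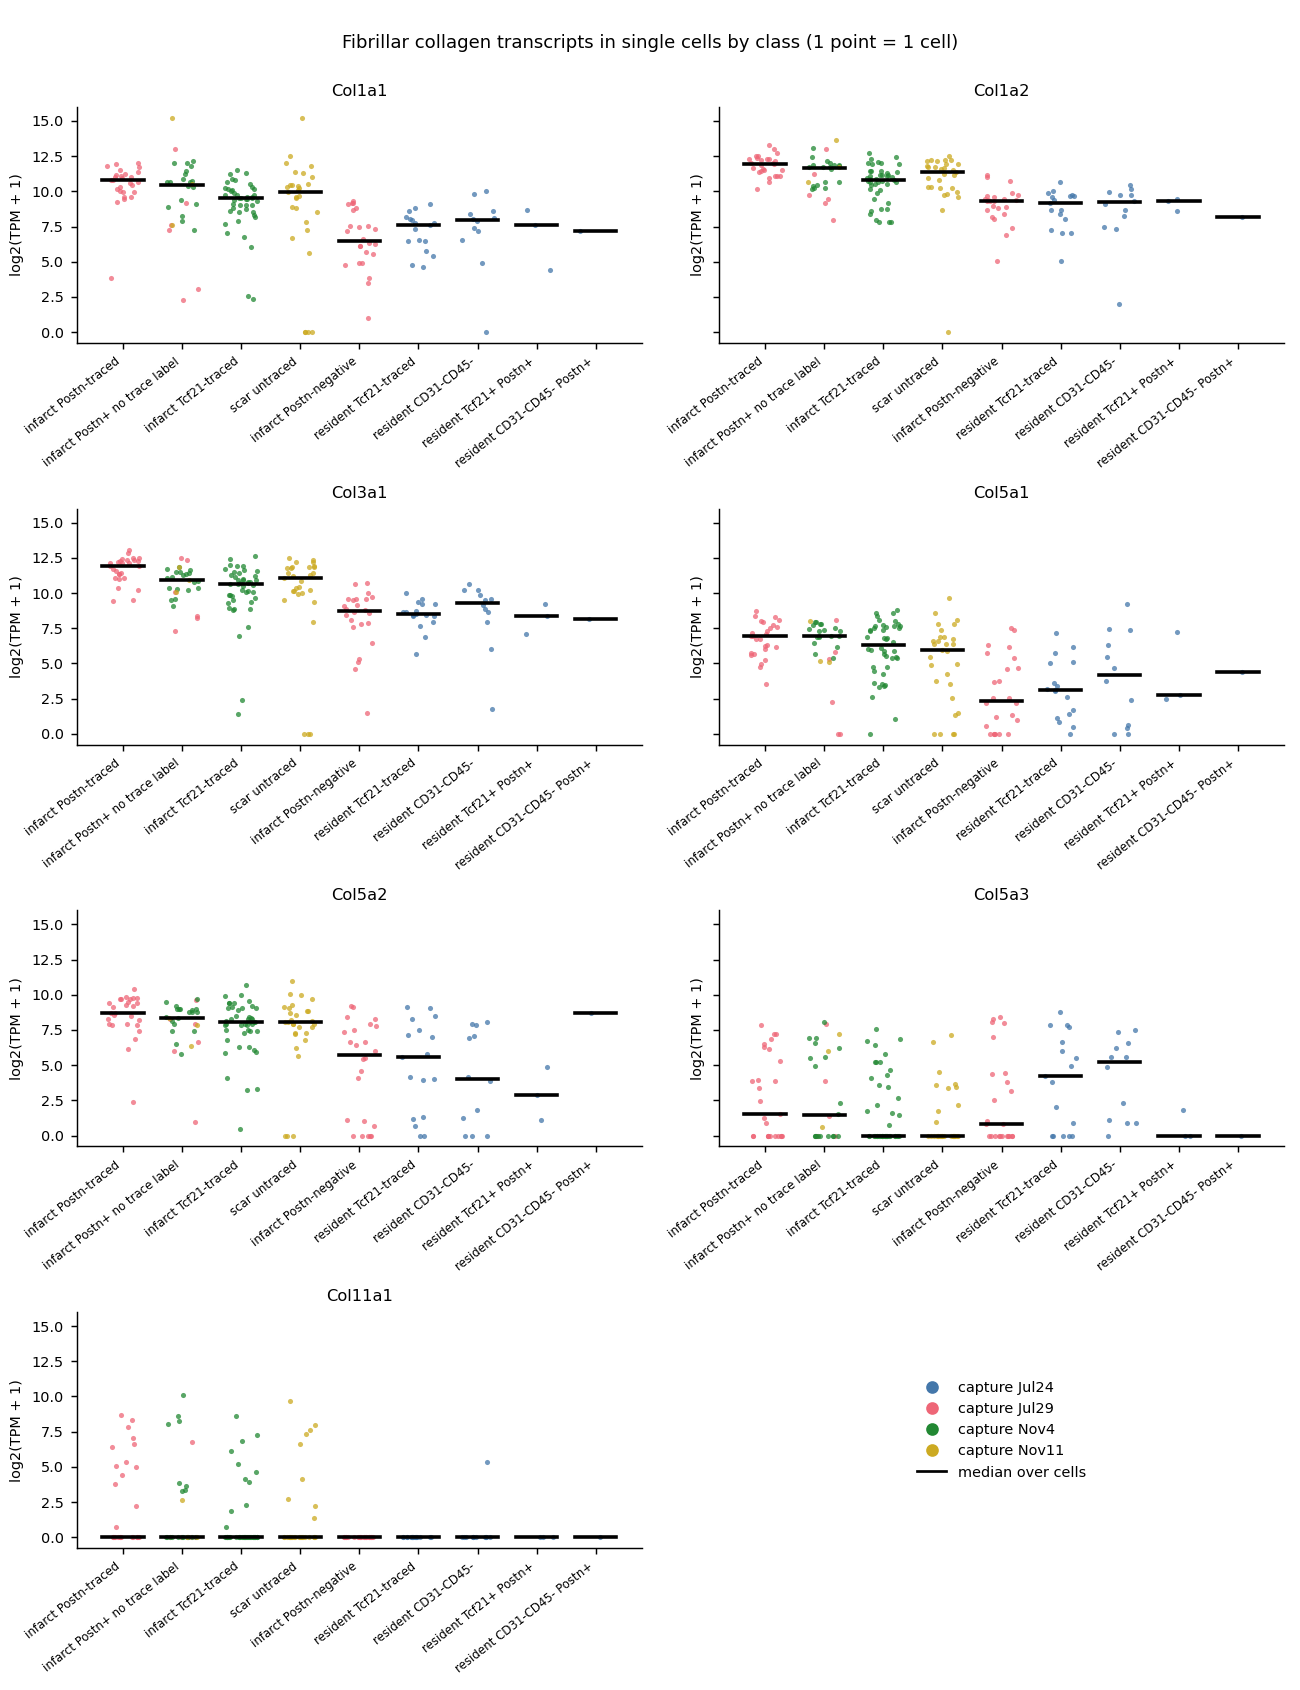
Each panel plots log2(TPM+1) of a gene in every cell (points) of the 9 classes, coloured by capture, with the class median as a black line. The medians of Col1a1, Col1a2, Col3a1, Col5a1 and Col5a2 are higher in the first 4 classes than in the Postn-negative and the larger resident classes. Col5a3 has its highest medians in the larger resident classes (5.22 and 4.20), and Col11a1 has a median of 0 in every class.

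The order of the levels, read from class means on this per-length scale, was Col1a2, Col3a1, Col1a1, Col5a2, Col5a1, Col5a3 and Col11a1 in Postn-traced cells, and the same in Postn-negative cells, Tcf21-traced infarct cells and Postn+ cells without a tracing label. In Postn-traced cells the means were 11.84 ± 0.73 for Col1a2, 11.67 ± 0.94 for Col3a1, 10.45 ± 1.53 for Col1a1, 8.52 ± 1.59 for Col5a2, 6.71 ± 1.26 for Col5a1, 2.76 ± 2.92 for Col5a3 and 2.65 ± 3.22 for Col11a1 (SD between 27 cells). Col1a2 with Col3a1, and Col5a3 with Col11a1, lie closer than the spread of the cells. The last 2 places changed in the scar. Col5a3 stood above Col5a1 in both larger resident classes, and in CD31-CD45- cells Col3a1 led. Type V and XI chains together made up a mean of 7.87% ± 5.45 of the summed TPM of the 7 genes in a Postn-traced cell, 11% ± 8.48 in a Tcf21-traced infarct cell, 12.2% ± 13.1 in a Postn-negative cell and 16.3% ± 13.7 in a resident Tcf21-traced cell. All of these means lie closer together than the SD of the resident cells.

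Summed over the 7 genes, fibrillar collagen transcripts made up 1.06% ± 0.452 (SD between 27 cells) of all TPM in Postn-traced cells, with a lowest cell at 0.253%, a median of 1.08% and a highest cell at 2.27%. It was 0.164% ± 0.0981 in the Postn-negative cells of that capture, from 0.0188% to 0.420%. It was 0.146% ± 0.0497 in resident Tcf21-traced and 0.186% ± 0.10 in resident CD31-CD45- cells, so these 3 classes lay within a narrow band. Tcf21-traced infarct cells stood between, at 0.522% ± 0.359, with cells from 0.0550% to 1.48%. For Postn+ cells without a tracing label it was 0.890% ± 1.02 and for scar cells 0.802% ± 0.840. The means of these last classes rest in part on 1 cell each, at 5.45% and 4.68%, in both of which Col1a1 exceeded 15 in log2(TPM+1). The first of these, with 1521 genes above 5 TPM, is the low-gene cell outside the scar class. The medians were 0.746% and 0.450%.

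**Figure D2:**
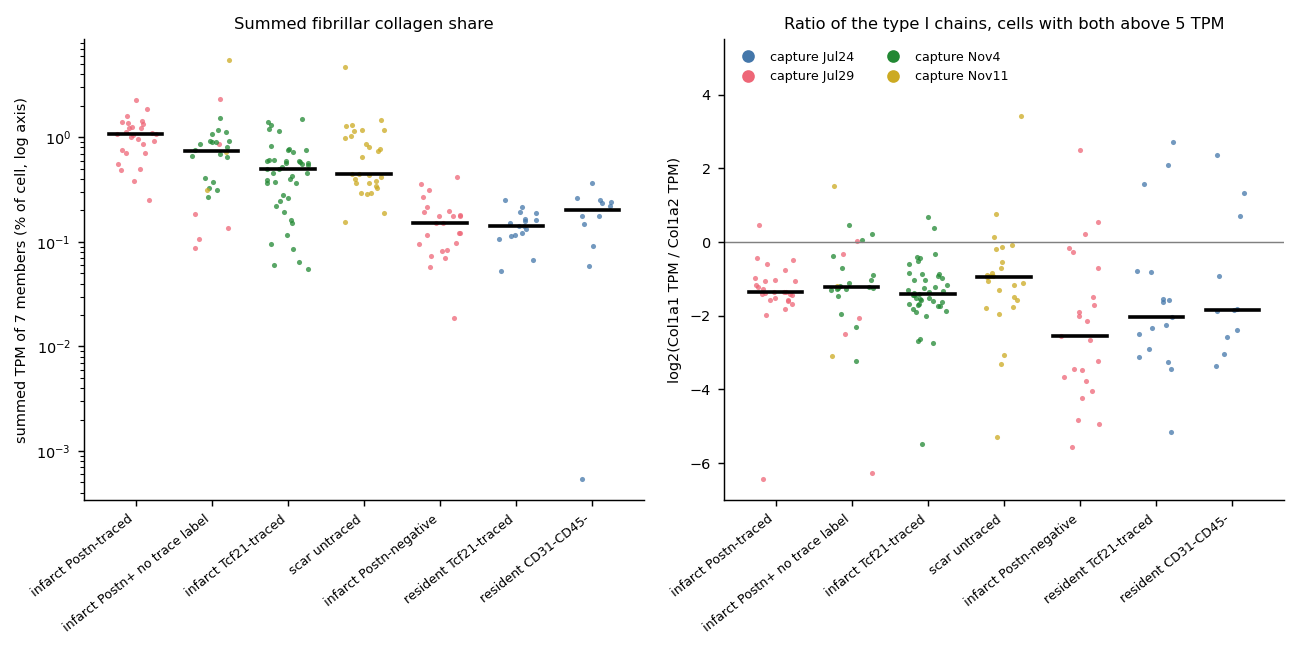
Left, the summed TPM of the 7 genes as percent of all TPM of a cell, on a log axis. Right, the log2 ratio of Col1a1 to Col1a2 TPM in cells with both above 5 TPM, with a grey line at equal levels. Points are cells of the 7 classes of 12 or more cells, coloured by capture, and black lines are medians, which run from 0.143% to 1.08% on the left and from -2.56 to -0.94 on the right.

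The major chains were detected in most cells of every class of 12 or more. All of Col1a1, Col1a2 and Col3a1 were above 5 TPM in 176 of 185 cells (95.1%, interval 91% to 97.8%), and in no class of 12 or more cells did the share fall under 86.2%, the value of the scar. Of the 9 cells without all 3, the 4 from the scar had 141 to 264 genes above 5 TPM. Without the 6 low-gene cells of the scar, Col1a1, Col1a2, Col3a1 and Col5a2 were each above it in 100% of the remaining 23, against 25, 28, 26 and 26 of all 29. Col5a2 was thus found as often as Col1a1 or more often in the scar, as it was in Tcf21-traced infarct cells (43 of 44 for both) and in Postn+ cells without a tracing label (27 of 28 for both). Col5a1 was above the minimum in all 27 Postn-traced cells and 10 of 24 (41.7%, interval 22.1% to 63.4%) Postn-negative cells. It was above it in 42 of 44 (95.5%, interval 84.5% to 99.4%) Tcf21-traced infarct cells and 11 of 17 (64.7%, interval 38.3% to 85.8%) resident Tcf21-traced cells. For Col5a2 the corresponding counts were 26 of 27 (96.3%, interval 81% to 99.9%) Postn-traced, 16 of 24 (66.7%, interval 44.7% to 84.4%) Postn-negative, 43 of 44 (97.7%, interval 88% to 99.9%) Tcf21-traced infarct and 12 of 17 (70.6%, interval 44% to 89.7%) resident Tcf21-traced cells. A Postn-traced cell had a median of 6 of the 7 genes above 5 TPM, and all 7 were found in 5 of the 27. In Postn-negative cells the median was 4.5, and 0 of 24 had all 7.

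The common type V molecule is built from the products of both Col5a1 and Col5a2. Col5a1 and Col5a2 were both above 5 TPM in 26 of 27 (96.3%, interval 81% to 99.9%) Postn-traced cells and 41 of 44 (93.2%, interval 81.3% to 98.6%) Tcf21-traced infarct cells. The pair was found in 8 of 24 (33.3%, interval 15.6% to 55.3%) Postn-negative cells, 7 of 17 (41.2%, interval 18.4% to 67.1%) resident Tcf21-traced cells and 5 of 12 (41.7%, interval 15.2% to 72.3%) resident CD31-CD45- cells. With Col5a3 as the third chain the counts were 12 of 27 Postn-traced, 14 of 44 Tcf21-traced infarct, 3 of 24 Postn-negative and 3 of 17 resident Tcf21-traced cells. In resident Tcf21-traced cells, Col5a3 was thus present in 10 cells but together with both partners in 3. Each of the 37 cells with Col11a1 above 5 TPM also had Col5a2, whose chain can pair with it in mixed type V/XI molecules. Col5a2 was above 5 TPM in 160 of all 185 cells (86.5%), and in nearly all Postn-traced and Tcf21-traced infarct cells. The overlap is thus near the share of Col5a2 itself and does not show pairing. Col5a3 and Col11a1 were found together in 10 of 185 cells (5.41%, interval 2.62% to 9.72%), 5 of them Postn-traced, and in 0 of 28 Postn+ cells without a tracing label.

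**Figure D3:**
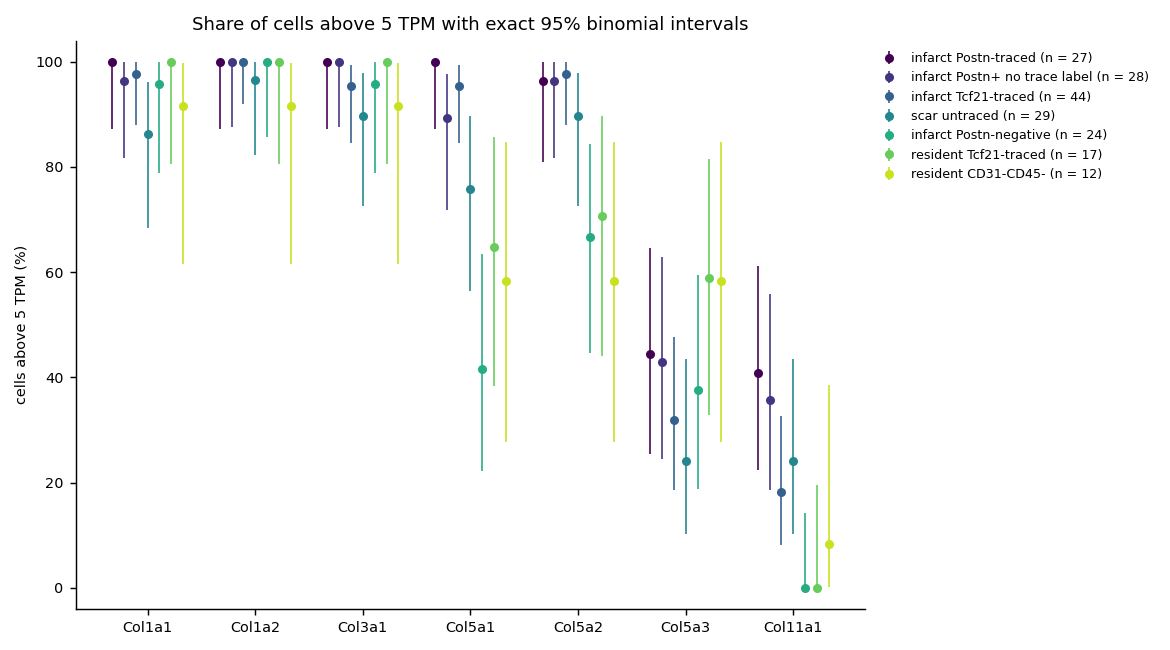
Share of cells above 5 TPM for each gene (points) with exact 95% Clopper-Pearson intervals (bars), for the 7 classes of 12 or more cells. Col1a1, Col1a2 and Col3a1 are near the top in every class, Col5a1 falls to 41.7% in Postn-negative cells, and Col11a1 is at 0 in Postn-negative and resident Tcf21-traced cells.

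The comparison of Postn-traced with Postn-negative cells asks how far the cells that used the Postn promoter after MI differ from the other infarct cells, within 1 capture. Of the 7 collagens, 6 were higher in the Postn-traced cells by more than 1 log2 unit and 0 were lower, with a median difference of 3.55. Among all 7843 genes above 5 TPM in at least 10% of the cells, 31.9% were higher and 4.42% lower by this rule, with a median of 0.58. By means of log2 values Col1a1 differed most, 10.45 ± 1.53 against 6.55 ± 2.08, a difference of 3.90. The differences were 3.85 for Col5a1, 3.77 for Col5a2, 3.55 for Col3a1 and 2.81 for Col1a2. Each of these 5 exceeded the SD between cells of either class. Their order depends on the setting: under alternatives Col5a1 reached 4.87 and Col11a1 5.74, against at most 4.43 for Col1a1. No Postn-negative cell was above the traced median for Col1a1, Col1a2 or Col3a1, and 2 were for Col5a1 and 2 for Col5a2. Col11a1 counts among the 6 because its mean in traced cells was 2.65 ± 3.22 and it is listed at 0 in all Postn-negative cells; with medians over cells its difference is 0. Col5a3, at 2.76 ± 2.92 and 2.53 ± 3.20, differed by 0.22, and its sign turned when means were taken on the linear scale (-0.66). When only cells with 2000 to 4000 genes above 5 TPM were compared, 21 in each class, the median difference was 3.27, and with the 6 Postn+ cells of the capture joined to the Postn-negative cells it was 3.21.

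Against resident Tcf21-traced cells, which were in another capture, the same cells gave a like picture. In Postn-traced cells 6 of the 7 genes were more than 1 log2 unit higher and 1 lower, with a median difference of 3.21, where 38.1% of all 7843 genes were higher and 4.51% lower, with a median of 0.71. Col5a2 differed by 3.62, Col5a1 by 3.55, Col1a1 by 3.32, Col3a1 by 3.21 and Col1a2 by 3.13, each more than the SD of either class. Col11a1 differed by 2.65, and by 0 with medians over cells. No resident Tcf21-traced cell reached the median of the Postn-traced cells for Col1a1, Col1a2 or Col3a1. Col5a3 was lower, with a difference of -1.14, less than the SD of either class (2.92 and 3.30). Its difference fell within 1 unit with a pseudocount of 5 TPM (-0.83), with cells centred on their median gene (-0.64) and among cells with 2000 to 4000 genes (-0.90). With medians over cells it was larger, -2.64.

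Tcf21-traced cells of the infarct and of uninjured hearts carry the same lineage label, so this compares cells of the Tcf21 lineage with and without MI, though in different captures. The count was again 6 higher and 1 lower, with a median difference of 1.85, against 33.4% higher and 4.72% lower of all 7843 genes and a median of 0.62. Col5a1 and Col5a2 had the largest of the class mean differences, with Col5a1 at 6.00 ± 2.04 against 3.16 ± 2.12 (difference 2.84) and Col5a2 at 7.68 ± 1.96 against 4.90 ± 3.27 (difference 2.78). With linear means Col5a2 (1.33) fell below Col1a1, Col1a2 and Col3a1. Col1a1 was higher by 1.93, Col1a2 by 1.85 and Col3a1 by 1.60. Of these 5, the differences of Col1a1, Col1a2 and Col5a1 exceeded the SD of both classes, while Col3a1 and Col5a2 varied more than that in 1 class. No resident cell was above the infarct median for Col1a1, Col1a2 or Col3a1, and 39, 35 and 40 of the 44 infarct cells were above the resident median. Col11a1 was listed at 0 in all 17 resident cells and had a mean of 1.17 ± 2.36 in the infarct cells, of which 11 had any value over 0. It was no longer counted as higher with medians over cells (0) or a pseudocount of 5 TPM (0.70). Col5a3 was lower in the infarct cells (1.81 ± 2.48 against 3.89 ± 3.30, difference -2.09), under the SD of either class. With medians over cells its difference was -4.20.

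Within the Nov4 capture, 44 Tcf21-traced cells could be set beside 19 Postn+ cells without a tracing label. In the Tcf21-traced cells 4 of 7 genes were more than 1 log2 unit lower and 0 higher, with a median difference of -1.07. Of all 7843 genes 9.14% were lower and 6.59% higher, with a median of -0.04. The 4 were Col11a1 (-1.42), Col1a1 (-1.23), Col5a1 (-1.08) and Col5a3 (-1.07). Col1a2, Col3a1 and Col5a2 differed by -0.85, -0.75 and -0.71. Every difference was smaller than the SD among the Tcf21-traced cells, and the values overlap: in the 44 cells Col1a1 ran from 2.38 to 11.53 around a median of 9.50, and in the 19 cells from 7.23 to 12.16 around 10.65. The second class was picked on Postn mRNA and the first was not, and 39 of the 44 Tcf21-traced cells had Postn above 5 TPM. The count of 4 ran from 2, with a pseudocount of 5 TPM, to 6, with each cell centred on its median gene.

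The 2 larger resident classes were captured together. Of the 7 collagens 0 were higher and 0 lower by more than 1 log2 unit in Tcf21-traced against CD31-CD45- cells, with a median of -0.11, although 16.5% of all 7843 genes were higher and 11.8% lower. The largest differences were 0.82 for Col5a2 and -0.81 for Col5a1, both well under the SDs of 2.12 to 3.37 of these genes. The count of 0 depends on the setting. With medians over cells Col5a2 was higher (1.56) and Col5a1 (-1.07) and Col5a3 (-1.02) lower, with linear means Col5a1 (-1.95) and Col11a1 (-2.12) were lower, and with a pseudocount of 0.1 TPM Col5a2 was higher (1.20). Without the CD31-CD45- cell that held myeloid markers, 1 gene was lower, Col5a1 at -1.17.

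Postn-negative cells of the infarct were close to resident CD31-CD45- cells of the other capture in the major chains. Col1a1 differed by -0.70, Col1a2 by 0.50 and Col3a1 by -0.41. By the 1-unit rule 0 of 7 genes were higher and 2 lower, Col5a3 (-1.55) and Col5a1 (-1.10), with a median of -0.45. Over all 7843 genes 19.9% were higher and 9.09% lower, with a median of 0.25. All 7 differences were smaller than the SD of the CD31-CD45- cells. The Col5a3 difference changed sign, to 0.10, with linear means and was -4.40 with medians over cells. Without the cell that held myeloid markers 4 genes were lower, Col1a1 (-1.36) and Col3a1 (-1.02) having joined Col5a3 and Col5a1.

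**Figure D4:**
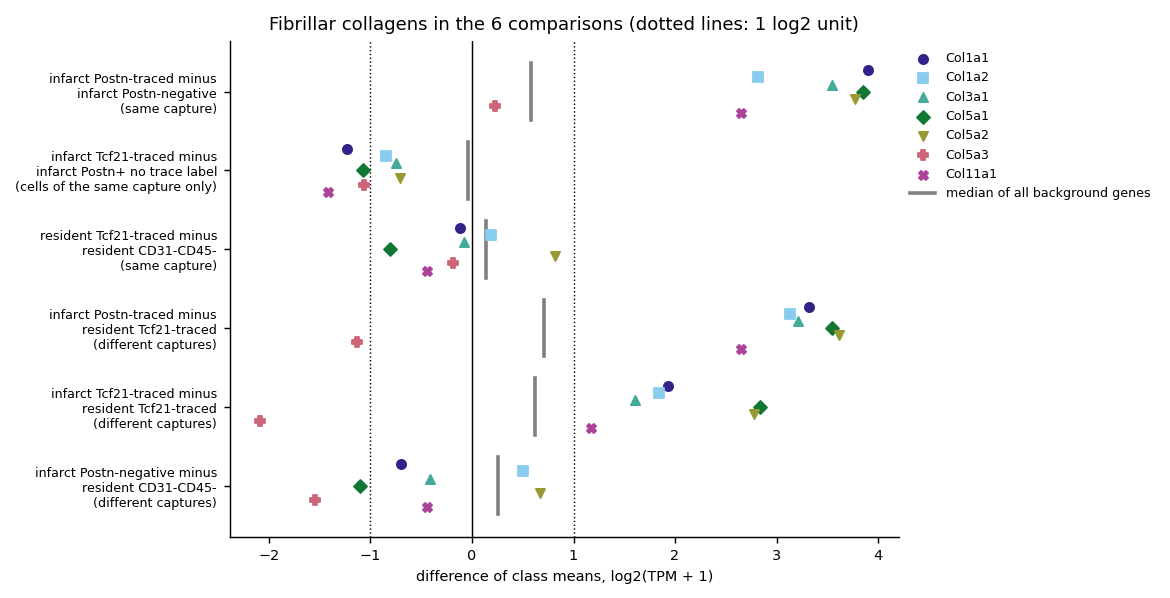
Differences of class means in log2(TPM+1) for the 7 genes (symbols) in the 6 comparisons, with grey bars at the median over all 7843 genes and dotted lines at 1 log2 unit. Col1a1, Col1a2, Col3a1, Col5a1, Col5a2 and Col11a1 lie to the right of both in the comparisons of traced infarct cells with Postn-negative or resident cells, and Col5a3 lies apart at 0.22, -1.14 and -2.09.

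A type I molecule takes more α1 than α2 chains, yet Col1a2 mRNA exceeded Col1a1 mRNA in most cells. The log2 ratio of Col1a1 to Col1a2 TPM, in cells with both above 5 TPM, was -1.39 ± 1.13 (SD) in 27 Postn-traced cells, where 1 cell had more Col1a1. It was -1.40 ± 0.94 in 43 Tcf21-traced infarct cells, -1.29 ± 1.45 in 27 Postn+ cells without a tracing label and -1.07 ± 1.55 in 25 scar cells. The lowest mean was that of 23 Postn-negative cells, -2.33 ± 2.01. In 17 resident Tcf21-traced and 11 resident CD31-CD45- cells it was -1.58 ± 2.06 and -1.22 ± 1.88. The sign of the mean was the same in all 7 classes, and these means differed by less than the SD of the Postn-negative cells. From mean TPM, however, the ratio was -0.14 in Postn+ cells without a tracing label and -0.06 in scar cells, close to equal levels. The spread was wider in Postn-negative and resident Tcf21-traced cells (SD 2.01 and 2.06) than in Tcf21-traced infarct cells (0.94). TPM divides by an annotated transcript length and both genes are read from amplified cDNA, and how evenly the transcripts were covered is not known here.

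Col1a1 was also below Col3a1, with log2 ratios of -1.22 ± 1.14 in Postn-traced, -1.19 ± 1.23 in Tcf21-traced infarct, -1.64 ± 2.67 in Postn-negative and -1.34 ± 2.02 in resident Tcf21-traced cells. The ratio of Col1a2 to Col3a1 was not computed, so these values speak for only 1 of the type I chains. Between these classes the ratio of Col1a1 to Col3a1 differed by less than its SD, while the levels differed. In Postn+ cells without a tracing label it was -0.74 ± 1.82 over cells but 0.51 from mean TPM, in which the cell with Col1a1 above 15 weighs most. Col5a1 was below Col5a2, at -2.01 ± 1.19 in 26 Postn-traced and -1.60 ± 2.27 in 41 Tcf21-traced infarct cells. In the 5 resident CD31-CD45- cells with both genes it was -0.36 ± 1.02, and 0.10 from mean TPM, so there the order is open. Among the neighbours on chromosome 1, Col3a1 exceeded Col5a2 by 2.91 ± 1.21 in 26 Postn-traced cells and by 1.89 ± 2.11 in 16 Postn-negative cells. The ratio of Col1a1 to Col5a1 was 3.76 ± 2.09 in Postn-traced cells, 3.15 ± 1.55 in Tcf21-traced infarct cells and 0.98 ± 2.0 in the 10 Postn-negative cells with both genes, a selected group since the other 14 lacked Col5a1 above 5 TPM. From mean TPM over all cells it was 3.70, 2.78 and 2.78, so the last 2 classes were then alike.

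Across the cells of a class, the type I chains moved together. The Pearson correlation of Col1a1 with Col1a2 was 0.84 in 28 Postn+ cells without a tracing label (0.84 in the 19 of the Nov4 capture), 0.80 in 44 Tcf21-traced infarct cells and 0.74 in 27 Postn-traced cells. It was 0.44 in 29 scar cells (0.64 in the 23 that are not low-gene cells) and 0.30 in 24 Postn-negative cells. Col1a1 with Col3a1 gave 0.71 in Postn+ cells without a tracing label but 0.20 in the 19 of Nov4, 0.68 in Postn-traced cells, 0.73 in Tcf21-traced infarct cells, 0.82 in scar cells (0.63 in those 23) and 0.25 in Postn-negative cells. These values describe cells that share a capture and differ in the number of genes found. That number itself correlated with Col1a2 at 0.65 in Postn-traced, 0.59 in Tcf21-traced infarct and 0.31 in Postn-negative cells. In Postn+ cells without a tracing label it gave 0.09 with Col1a2 and 0 with Col1a1. In scar cells it gave 0.25 with Col1a2, but 0.58 with Col1a1 and 0.64 with Col3a1. The part of this number in the co-expression was not tested.

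Over the 10 pairs among Col1a1, Col1a2, Col3a1, Col5a1 and Col5a2, the median r was 0.61 in Tcf21-traced infarct cells, 0.56 in Postn+ cells without a tracing label, 0.44 in scar cells (0.45 in the 23), 0.40 in Postn-traced cells and 0.25 in Postn-negative cells. The second of these values joins cells of 3 captures. In the 19 cells of Nov4 alone it was 0.18, with Col5a1 at -0.21 with Col1a1, so the higher value does not hold within the capture. Col5a1 and Col5a2, partners in type V, correlated at 0.44 in Postn-traced, 0.42 in Postn-negative and 0.63 in scar cells (0.28 in the 23) but at 0.19 in Tcf21-traced infarct cells, where Col5a1 followed Col1a1 (0.71). In Postn+ cells without a tracing label they gave 0.42, but -0.25 in the 19 cells of Nov4, the lowest of the 10 pairs there. In Postn-traced cells Col5a1 and Col1a1 had an r of -0.09. In the 29 scar cells the pairs ranged from -0.23 for Col1a2 with Col5a1 to 0.82 for Col1a1 with Col3a1. The negative value rests on low-gene cells, since Col1a2 with Col5a1 gave 0.25 in the other 23, where all 10 pairs lay between 0.18 and 0.64.

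In each of these classes the median r of Col5a3 with those 5 genes was below that of the 5 among themselves. It was 0.23 in Postn-traced, 0.23 in Tcf21-traced infarct, 0.11 in Postn-negative and 0.03 in scar cells (-0.30 without the low-gene cells). In Postn+ cells without a tracing label it was 0.10, but -0.25 in the 19 of Nov4. For Col11a1 the median r was 0.21 in Postn-traced, 0.23 in Tcf21-traced infarct and 0.31 in scar cells. In the scar without the low-gene cells it was 0.49, where that of the 5 genes was 0.45 and Col11a1 with Col1a2 gave 0.59. In Postn+ cells without a tracing label it was 0.26, but 0.04 in the 19 of Nov4. It has no value in Postn-negative cells, where the gene is at 0. Each of the 2 genes was at or under 5 TPM in most cells of these classes, so these values are descriptions. Col5a3 and Col11a1 were opposed in Postn+ cells without a tracing label, at -0.58 over 28 cells and -0.65 over the 19 of Nov4, and no cell of that class had both above 5 TPM. In the other classes the pair gave -0.11 (Postn-traced), 0.11 (Tcf21-traced infarct) and -0.20 (scar, -0.29 without the low-gene cells).

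**Figure D5:**
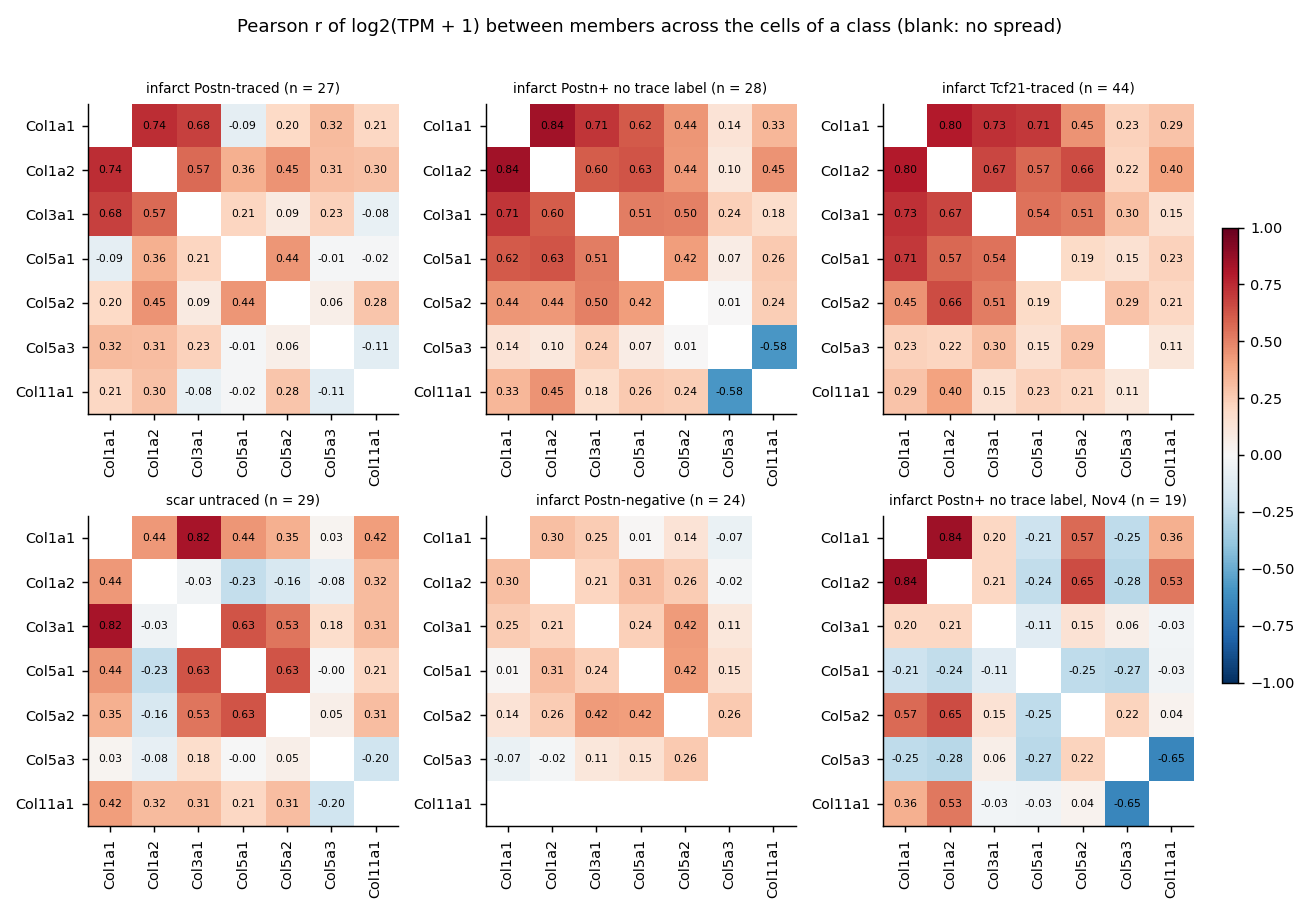
Pearson r of log2(TPM+1) between each pair of the 7 genes across the cells of a class (colour and printed value), for the 5 classes of 20 or more cells and for the 19 Nov4 cells of the Postn+ class without a tracing label. The type I chains reach 0.74 to 0.84 in 3 infarct classes, rows of Col5a3 are pale apart from the negative value with Col11a1 in the Postn+ class, and Col11a1 is blank in Postn-negative cells, where it has no spread.

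Among 1640 other genes above 5 TPM in at least 50% of all cells, those closest to the mean of Col1a1, Col1a2 and Col3a1 across the cells of the 5 larger classes were Sparc (mean r 0.62), which encodes a collagen-binding matricellular protein, Fn1 (0.55, fibronectin), Col14a1 (0.54, a collagen that sits on fibril surfaces), C1qtnf6 (0.52) and AK205936 (0.50). The median over all 1640 genes was 0.11, and the mean r of the collagens with the number of genes per cell was 0.35. For Col5a1 the closest were AK205936 (0.43), Usmg5 (0.37), Edf1 (0.37), Wbp5 (0.36) and Fbn1 (0.35, the microfibril protein fibrillin-1), and with the number of genes per cell Col5a1 had a mean r of 0.28. For Col5a2 they were AK205936 (0.43), Csrp2 (0.39), Cthrc1 (0.39), Ppic (0.36) and Vamp8 (0.35), against 0.27 with that number. Col5a3, over 3 classes, was nearest to Col15a1 (0.38), Ndufa4l2 (0.33), Eif3a (0.33), BC134356 (0.33) and Tceb2 (0.33), against 0.20. Col11a1, over the Postn-traced cells and the Postn+ cells without a tracing label, was nearest to Postn (0.44), Srpx2 (0.42), Cthrc1 (0.39), Sparc (0.38) and Aspn (0.38), and its mean r with the number of genes per cell was 0.03. Without the 7 low-gene cells, 3 of the 5 genes named for the major chains stayed among the first 5. They were Sparc (0.67), Col14a1 (0.55) and C1qtnf6 (0.47). For Col5a1 3 stayed and for Col5a2 1 (Cthrc1 at 0.45), so these 3 lists depend on the low-gene cells. The lists of Col5a3 and Col11a1 use no scar cells and held only 1 of the 7, a Postn+ cell. Without it 2 genes stayed for Col5a3 and all 5 for Col11a1. The counts for these 2 lists are therefore not comparable with the others. The lists of the type V and XI chains hold low correlations and are descriptions of these cells.

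Genes that make, trim, cross-link, bind and cleave fibrils were counted in the same comparisons. Of 54 listed, 51 have a row and 43 are among the 7843 genes that the shares of all genes refer to. In Postn-traced against Postn-negative cells 26 of 43 (60.5%, against 31.9% of all genes) were higher by more than 1 log2 unit and 3 of 43 (6.98%, against 4.42% of all genes) lower. Over all 51, 28 were higher and 4 lower, with a median of 1.11. The values by role are counted over the 51, which include genes outside the 7843. With no filter on low values, 15.3% of all genes were higher and 2.15% lower in this comparison. Of the hydroxylases and their partners, which modify prolines and lysines of the new chains, 6 of 12 were higher, from P4ha3 (3.83) to P4hb (-0.23). Of the genes for folding, export and mRNA binding, 2 of 4 were higher and 1 lower, from the chaperone Fkbp10 (3.97) to Larp6 (-1.06), which binds collagen mRNA. Of those that remove propeptides 3 of 7 were higher and 1 lower, from Bmp1 (3.12), the C-proteinase, to Pcolce2 (-1.69).

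Cross-linking enzymes were higher in 3 of 5, from Lox (6.41) to Loxl4 (0.03). Fibril-associated genes were higher in 7 of 9, from Fn1 (5.98) to Dcn (-0.86), the proteoglycan decorin, which is also a fibroblast marker above. Collagen receptors were higher in 4 of 8 and lower in 1, from Itga11 (1.84) to Ddr2 (-1.75). Genes of collagen cleavage and its inhibition were higher in 3 of 6 and lower in 1, from the inhibitor Timp1 (5.59) to Timp3 (-2.78). In Postn-traced against resident Tcf21-traced cells 27 of 43 (62.8%, against 38.1% of all genes) were higher and 3 of 43 (6.98%, against 4.51% of all genes) lower, and in Tcf21-traced infarct against resident cells 26 of 43 (60.5%, against 33.4% of all genes) were higher and 2 of 43 (4.65%, against 4.72% of all genes) lower. Within Nov4 3 of 43 (6.98%, against 6.59% of all genes) were higher and 11 of 43 (25.6%, against 9.14% of all genes) lower in Tcf21-traced cells. Between the resident classes 10 of 43 (23.3%, against 16.5% of all genes) were higher and 2 of 43 (4.65%, against 11.8% of all genes) lower, and in Postn-negative against resident CD31-CD45- cells 12 of 43 (27.9%, against 19.9% of all genes) were higher and 2 of 43 (4.65%, against 9.09% of all genes) lower.

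The other fibrillar collagens were sparse. Col27a1 was above 5 TPM in 53 of 185 cells (28.6%, interval 22.3% to 35.7%), with 13 of 28 Postn+ cells without a tracing label, 10 of 27 Postn-traced, 14 of 44 Tcf21-traced infarct, 5 of 29 scar, 5 of 24 Postn-negative, 3 of 12 resident CD31-CD45- and 2 of 17 resident Tcf21-traced cells. It was 1.21 higher in Postn-traced than in Postn-negative cells, less than the SD of either class. Col24a1 was above the minimum in 8 cells, 4 of them Postn-traced and 3 from the scar, and in 0 of 24 Postn-negative, 0 of 17 resident Tcf21-traced and 0 of 12 resident CD31-CD45- cells. Col2a1, the main collagen of cartilage, was above it in 2 cells of 185 and Col11a2 in 1.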

How the data were processed

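RNA of single heart cells was amplified with SMARTer chemistry on a Fluidigm C1 and sequenced after Nextera tagmentation. The authors deposited 1 table of log2(TPM+1) for 17171 genes in 185 cells, made per the submitters' notes with Bowtie 1.0.0, eXpress 1.5.1 and mm10. Per cell the TPM values sum to between 999257 and 1000000. Another 3 columns without a sample were not used. Classes follow the labels, captures the cell names. Class means, shares above 5 TPM, chain ratios and Pearson correlations were computed with SciPy 1.17.1, pandas 2.3.3 and NumPy 2.4.6 under Python 3.11.15, and drawn with Matplotlib 3.10.9. The code was tested on simulated data. No test between classes was run. The named genes are the 7 collagens, the 5 genes most correlated with each minor chain and with the mean of the major chains, the other fibrillar collagens, and the largest and smallest difference in each role. The members and lists were chosen with earlier results of these data known. Of the role genes, Tll1, Mmp8 and Mmp13 have no row, nor have the markers Cldn5, Nppa and Muc16. Alternatives changed 1 choice at a time.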

Additional observations from a re-analysis of the deposited data

How the results depend on the processing

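The median difference of the 7 collagens kept its sign in all 6 comparisons in all 48 alternative values, of which 2 moved by more than 1.5-fold. Those were Postn-traced against Postn-negative cells with a pseudocount of 5 TPM (2.88 in place of 3.55) and with means of TPM on the linear scale (2.53). Centring each cell on its median gene moved the median of all genes by 0.52 in that comparison, by 0.50 and 0.45 in the comparisons of traced infarct cells with resident Tcf21-traced cells and by -0.26 within Nov4, and it shifts the collagens by the same amounts by construction. It also moved the share of higher among all called genes within Nov4 from 41.9% to 17%. Counts of genes past 1 log2 unit changed as follows. With medians over cells, which are 0 for Col11a1, 5 in place of 6 were higher in each of the 3 comparisons of traced infarct cells with Postn-negative or resident cells, and with a pseudocount of 5 TPM 5 in place of 6 in Tcf21-traced infarct against resident cells. Within Nov4 the lower genes were 6 in place of 4 with cells centred, and 3 with linear means or medians. With a pseudocount of 5 TPM, the lower genes were 2 in place of 4 within Nov4, 0 in place of 1 in Postn-traced against resident Tcf21-traced cells and 0 in place of 2 in Postn-negative against resident CD31-CD45- cells. With cells centred, or limited to 2000 to 4000 genes, the lower gene of Postn-traced against resident Tcf21-traced cells was also lost (0). Between the resident classes, where 0 were called, 1 was higher with a pseudocount of 0.1 TPM, 2 were lower with linear means, 1 was higher and 2 were lower with medians over cells, and 1 was lower without the cell holding myeloid markers. In Postn-negative against resident CD31-CD45- cells 1 was higher and 3 in place of 2 were lower with medians, and 4 were lower without that cell. Col5a3 there changed sign with linear means (0.10 in place of -1.55). In the scar, the log2 ratio of Col1a1 to Col3a1 was 0.14 from mean TPM in place of -1.01, and in resident Tcf21-traced cells that of Col5a1 to Col5a2 was 0.40 in the 1 cell with both above 50 TPM in place of -2.49. Of ratios nearer to 0, that of Col1a1 to Col3a1 in Postn+ cells without a tracing label became 0.51 from mean TPM in place of -0.74, and that of Col5a1 to Col5a2 in resident CD31-CD45- cells 0.10 from mean TPM and 0.06 with both above 50 TPM in place of -0.36. The median r of 10 pairs went from 0.56 to 0.18 in the Nov4 cells of the Postn+ class, from 0.44 to 0.78 in the scar with cells centred, and from 0.254 to 0.0433 in Postn-negative cells with both genes above 5 TPM. The causes were not tested. The settings on joined or left-out cells, on 2000 to 4000 genes and on Nov4 alone, and the centred or rescaled shares of all genes, were chosen after seeing the data. Of 336 differences of single genes 277 moved by less than 1.5-fold, of 189 shares 159 stayed within their interval, and of 105 ratios all but the 2 that turned from a mean of more than 1 unit moved by no more than the SD between cells. Of 58 co-expression values 14 moved. The shares of all genes depend on the filter and on centring: of 24 values each, 14 for higher and 13 for lower moved by more than 1.5-fold. In Postn-traced against Postn-negative cells 31.9% higher became 15.3% with no filter on low values, 44.6% for genes above 5 TPM in at least 50% of cells and 55.1% with cells centred. Centring also took 38.1% higher to 58.8% in Postn-traced and 33.4% to 52.8% in Tcf21-traced infarct cells, both against resident Tcf21-traced cells. Within Nov4 it took 6.59% higher to 3.26% and 9.14% lower to 15.9%. For Col11a1 in Postn-negative cells no correlation could be computed, and for Col5a3 none in cells with both genes. With 12 to 44 cells in a class and unknown depth per cell, a gene at 0 in a cell says little about that cell.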

Other observations

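The 4 resident cells labelled Postn+ belong to no comparison. In the 3 Tcf21+ Postn+ cells Postn averaged 8.40 in log2(TPM+1), and in the CD31-CD45- Postn+ cell it was 13.13, above the mean of the Postn-traced infarct cells (11.81). Their type I and III collagens lay in the range of the other resident cells, but for 1 cell whose Col1a1 was below all others except the cell with myeloid markers. With the 3 cells kept in 1 order, Col1a1 was 7.58, 8.69 and 4.40, Col1a2 was 9.28, 8.60 and 9.42, and Col3a1 was 9.24, 7.07 and 8.34. The single cell had 7.22, 8.20 and 8.13 for these genes. The class means of the resident Tcf21-traced cells were 7.13, 8.71 and 8.46 for these genes. Col11a1 was listed at 0 in all 4 cells and Col5a3 in 3 of them. Col5a2 was 4.87, 1.09 and 2.91 in the 3 cells, in the same order. In the single cell it was 8.73, which is near the median of the Postn-traced cells. With 3 cells and 1 cell these values are descriptions of single cells.

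Within the Postn+ cells that carry no tracing label, collagen levels differed by capture. The 6 cells of Jul29 had a median Col1a1 of 7.44, Col5a1 of 3.76 and Col5a2 of 7.28, while the 19 cells of Nov4 had 10.65, 7.30 and 8.75. In the Jul29 cells Col1a1 ran from 2.26 to 13.02, a range that holds the medians of both the Postn-negative (6.51) and the Postn-traced cells (10.80) of that capture. Their median number of genes above 5 TPM was 2234.5, against 3361 in the Nov4 cells, and capture, mouse and kind of cell cannot be told apart.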
